A study of Rattus norvegicus with 4 samples.

Results

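The cyclins that drive cells through G1, the kinases they activate and the phosphatase that switches one of those kinases on form a set of 9 genes: the D-type cyclins Ccnd1, Ccnd2 and Ccnd3, the E-type cyclins Ccne1 and Ccne2, the kinases Cdk2, Cdk4 and Cdk6, and Cdc25a. They were taken by symbol from the platform annotation, and all 9 were found, as 9 of the 14217 named genes on the array and 14 of its 31042 probe sets. Expression was measured in hippocampal progenitor cells of Fisher 344 rats on Affymetrix arrays, with 1 array for each of 4 groups. The cells had received 1 of 3 treatments, namely KHS101 (5 uM), KHS101 (1.7 uM) or retinoic acid (1 uM) together with forskolin, or the solvent DMSO as negative control, all in N2 medium for 4 days per the labels' protocols. The series design names retinoic acid as the positive control. KHS101 is a synthetic compound that has been examined as an inducer of neuronal fate, retinoic acid is a vitamin A derivative that acts through nuclear receptors, and forskolin raises cAMP. DMSO was at 0.1% per the labels' protocols; the forskolin concentration, the age and number of rats and the number of cultures behind each array are not given in the sources used here. The cells were of early passage and were a bulk culture, so fewer dividing cells and less RNA of a cyclin per cell cannot be told apart in any value below.

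In the textbook scheme, mitogens raise D-type cyclins, which activate CDK4 and CDK6 to begin phosphorylation of the retinoblastoma protein. This releases E2F factors, which switch on genes for DNA synthesis and the E-type cyclins. Cyclin E with CDK2 completes the phosphorylation and starts S phase, after CDC25A has removed inhibitory phosphates from CDK2. CIP/KIP proteins such as p21 and p27 restrain CDK2 complexes, and INK4 proteins block CDK4 and CDK6. In neural progenitors these proteins set the length of G1, and cyclin D2 is known for its part in the division of progenitors in the adult hippocampus.

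The values are on the log2 scale, and those under a floor of log2 = 5 were raised to it. The floor was a chosen level, below which the background-corrected signal was not taken as specific, and was not measured from these arrays. A gene counted as measured in a comparison if at least 1 of its 2 arrays was above the floor, and as called at a difference of 2-fold or more. With 1 array per group no difference has a replicate check or a p-value, and precision is limited by how few arrays there are. The repeat measurement that exists is between probe sets of one gene on the same arrays: over 2188 genes their differences had a pooled SD between 0.20 and 0.29 on the log2 scale, depending on the comparison. Across the 4 arrays between 8389 and 8471 genes lay above the floor. The beta-actin controls compare probes at the 3' end with those at the 5' end as a measure of RNA integrity and amplification. They gave differences of 1.54 for KHS101 5 uM, 1.40 for 1.7 uM, 1.37 for retinoic acid with forskolin and 1.26 for DMSO on the log2 scale. The hexokinase controls gave 0.96, 0.80, 0.66 and 0.69 in the same order, and the GAPDH controls -0.11, -0.14, -0.12 and -0.16. The part of these controls in the results was not tested. Of the progenitor markers listed, 7 of the 8 named on the array were above the floor on every array, among them Nes, Sox2, Vim and Fabp7, and Pax6 was not. All 5 microglial and all 5 fibroblast markers were below the floor on every array. Of the neuronal markers 3 of 7 were above it on every array, Tubb3, Map2 and Syt1, and of the astrocyte markers 3 of 6, while the defining markers Dcx and Gfap were below it throughout. Of 3 endothelial markers, Kdr was above it on the retinoic acid array alone. The 6 oligodendrocyte lineage markers named, Olig2 and Sox10 among them, were above it on every array. Their summed signal was 14.59 for KHS101 5 uM, 15.15 for 1.7 uM, 16.15 for retinoic acid with forskolin and 15.75 for DMSO on the log2 scale. That of the progenitor markers was 15.34, 15.76, 15.97 and 16.09 in the same order, although Hes1 read 10.36 and 10.55 with KHS101 against 9.02 in DMSO, and Nes 11.89 and 11.97 against 11.36. The astrocyte sum was 13.62, 13.93 and 14.91 on the treated arrays in that order, against 13.87 in DMSO, and the neuronal sum 12.79, 12.87 and 13.02 against 12.63. The part of these markers in the results below was not tested.

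Of the D-type cyclins, Ccnd2 alone was called against DMSO, and it was higher with every treatment. Ccnd2 had log2 values of 12.92 with KHS101 5 uM, 13.11 with KHS101 1.7 uM and 12.51 with retinoic acid and forskolin, against 10.73 in DMSO. The DMSO array stood apart from the other three, which lay within 0.60 of each other. Ccnd2 was 4.56-fold higher at 5 uM, 5.20-fold at 1.7 uM and 3.43-fold with retinoic acid and forskolin. Among all measured genes, 110, 55 and 101 lay further above DMSO in the same order. Ccnd2 rested on a single probe set, so not even the probe repeat was available for it.

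Ccnd1, the D-type cyclin best known as a mitogen-induced gene, showed little difference between arrays. Its brightest probe set read 13.70 with KHS101 5 uM, 13.95 with 1.7 uM and 13.88 with retinoic acid and forskolin, against 13.79 in DMSO. The other Ccnd1 probe sets differed from DMSO by 0.16 and -0.10 at 5 uM, by 0.23 and 0.06 at 1.7 uM, and by 0.23 and -0.06 under retinoic acid plus forskolin, on the log2 scale. Signs therefore varied between probe sets of the same gene in comparisons with DMSO, both for KHS101 5 uM and for the positive control. The range of Ccnd1 over the 4 arrays was 1.19-fold, and 7226 of the 8216 genes above the floor on all arrays had a wider one.

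Ccnd3 went in different directions under the treatments, within 2-fold of DMSO. Its log2 value was 9.84 with KHS101 5 uM, 10.71 with KHS101 1.7 uM and 11.10 with retinoic acid and forskolin, against 10.35 in DMSO. The 5 uM array was the lowest and the retinoic acid array the highest. Against DMSO the gene was 1.43-fold lower at 5 uM, 1.28-fold higher at 1.7 uM and 1.68-fold higher with retinoic acid and forskolin. The lowest and highest arrays differed by 2.40-fold, so Ccnd3 was called lower for KHS101 5 uM against retinoic acid with forskolin.

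Of the kinases that D-type cyclins activate, Cdk4 was measured and was not called in any comparison. It had log2 values of 13.91 with KHS101 5 uM, 14.01 with 1.7 uM and 13.82 with retinoic acid and forskolin, against 14.08 in DMSO. The DMSO array was the highest by a small margin, and the full range was 1.20-fold. Against DMSO the differences were -0.17 and -0.08 for the KHS101 concentrations, smaller than the pooled probe set SD, and -0.26 for retinoic acid with forskolin, slightly larger than the SD of 0.22 in that comparison. Cdk6 was below the floor on all 4 arrays, at log2 values between 2.15 and 2.22, and was not measured; its single probe set does not show whether the transcript was absent.

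**Figure D1:**
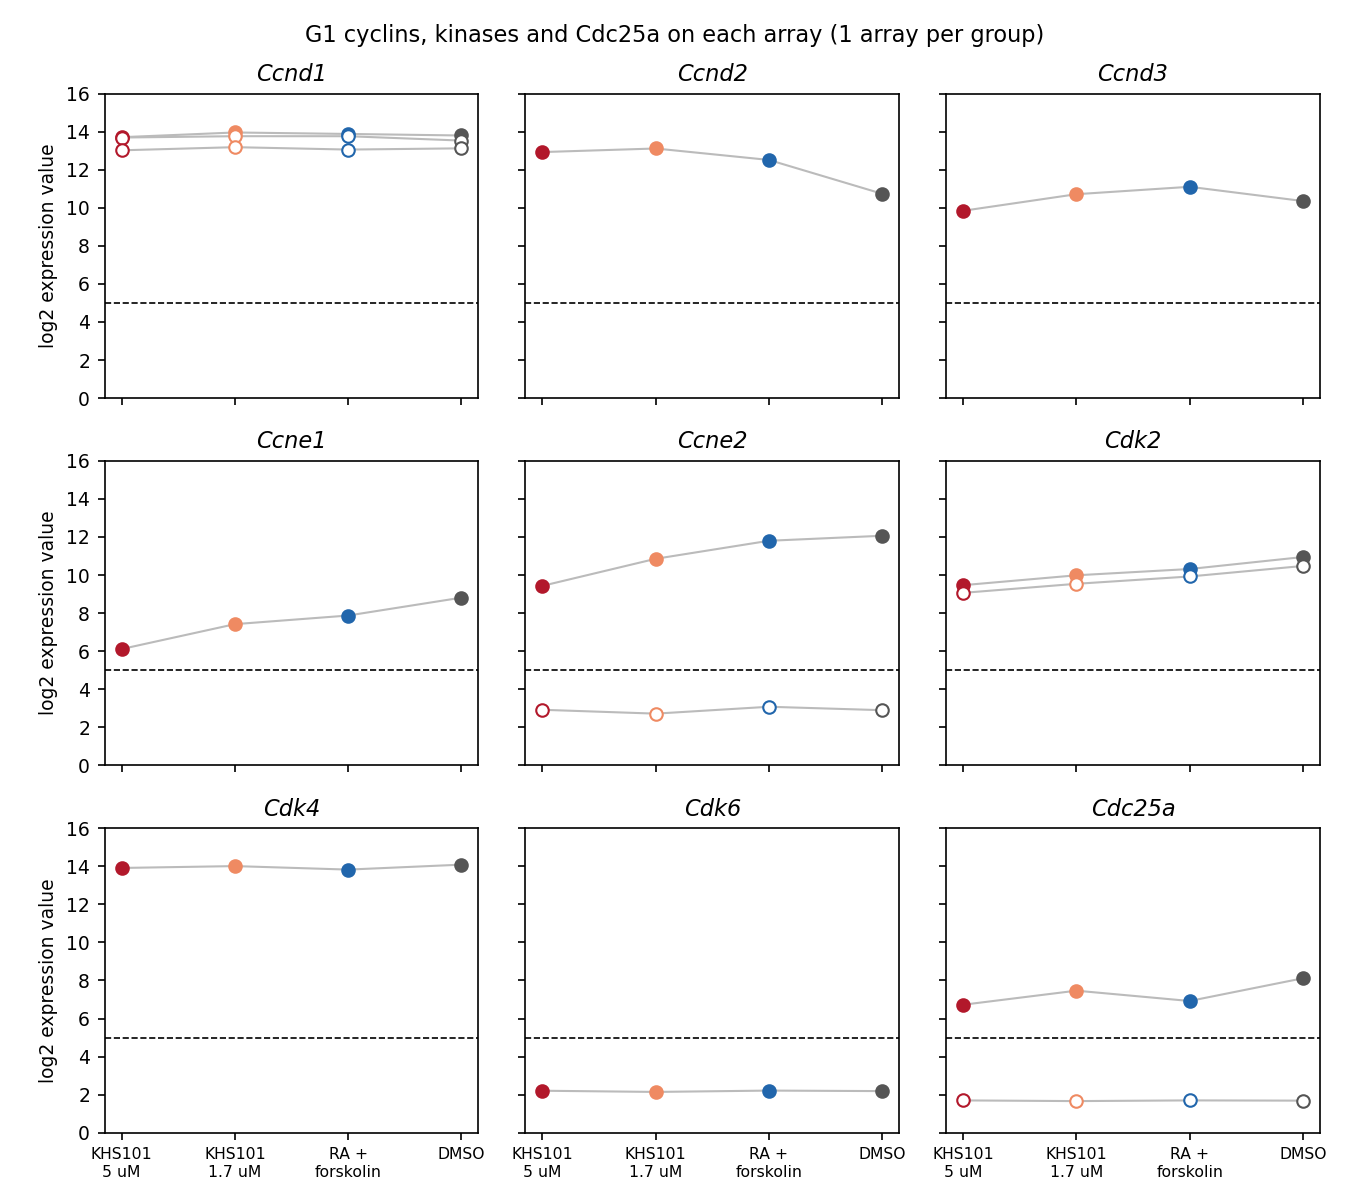
Each panel shows 1 gene, with the log2 expression value (vertical axis, 0 to 16) on the 4 arrays (horizontal axis); filled points are the probe set that stands for the gene, open points its other probe sets, grey lines join 1 probe set, and the dashed line is the floor of 5. Ccnd2 is higher on the 3 treated arrays than in DMSO, Ccne1, Ccne2 and Cdk2 are lowest with KHS101 5 uM and highest in DMSO, and Cdk6 and 1 probe set each of Ccne2 and Cdc25a lie below the floor.

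Both E-type cyclins were lower with KHS101 than in DMSO, and more so at the higher concentration. Ccne1 had log2 values of 6.11 with KHS101 5 uM, 7.42 with 1.7 uM and 7.87 with retinoic acid and forskolin, against 8.81 in DMSO. The arrays were ordered without a tie, with 5 uM lowest and DMSO highest. Ccne1 was 6.49-fold lower at 5 uM, 2.62-fold lower at 1.7 uM and 1.92-fold lower with retinoic acid and forskolin, the last of these just short of the 2-fold call. At 5 uM, 43 of 8543 measured genes were further below DMSO than Ccne1, and at 1.7 uM 125 of 8533 were.

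Ccne2 read 9.43 with KHS101 5 uM, 10.85 with KHS101 1.7 uM and 11.80 with retinoic acid and forskolin, against 12.06 in DMSO. The retinoic acid array lay close to DMSO, and the KHS101 arrays lay well below both. Ccne2 was 6.20-fold lower at 5 uM and 2.31-fold lower at 1.7 uM, with 48 and 225 measured genes further below DMSO. With retinoic acid and forskolin it was 1.20-fold lower, and 2430 of 8535 genes were further below, so the log2 differences of Ccne1 and Ccne2 were -0.94 and -0.26 there and -2.70 and -2.63 at 5 uM. With 1 array per group this contrast could not be tested. The other Ccne2 probe set was below the floor on all arrays and gave no reading.

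Cdk2, the kinase partner of the E-type cyclins, had the same order of arrays as they did. It read 9.47 with KHS101 5 uM, 9.99 with 1.7 uM and 10.32 with retinoic acid and forskolin, against 10.95 in DMSO. A further Cdk2 probe set read 9.07, 9.54 and 9.92 on the treated arrays in that order, against 10.48 in DMSO. The order was the same in both probe sets. The first probe set was 2.78-fold lower at 5 uM, 1.94-fold lower at 1.7 uM and 1.55-fold lower with retinoic acid and forskolin. On the log2 scale the probe sets gave -1.48 and -1.41 at 5 uM, -0.96 and -0.94 at 1.7 uM, and -0.63 and -0.55 with retinoic acid and forskolin. Of the measured members, Ccnd1 and Cdk2 had more than 1 probe set above the floor, and Cdk2 was the called one, at 5 uM.

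Cdc25a, which encodes the phosphatase that activates CDK2, was also highest in DMSO but had another order. It read 6.72 with KHS101 5 uM, 7.46 with KHS101 1.7 uM and 6.92 with retinoic acid and forskolin, against 8.11 in DMSO. Here the retinoic acid array lay nearer to KHS101 5 uM than the 1.7 uM array did. Cdc25a was 2.62-fold lower at 5 uM, 1.57-fold lower at 1.7 uM and 2.29-fold lower with retinoic acid and forskolin. With retinoic acid and forskolin 140 of 8535 genes were further below DMSO. Its other probe set was below the floor throughout.

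Counted together, 1 of the 8 measured members was higher and 4 were lower in KHS101 5 uM than in DMSO, where 6.16% of all measured genes were higher and 8.1% lower. The median log2 difference of the 8 was -0.95, beside 0.00 over all genes. At 1.7 uM 1 was higher (4.36% of all genes) and 2 were lower (4.27%), with a median of -0.36 beside -0.01. With retinoic acid and forskolin 1 was higher (4.34%) and 1 lower (3.15%), with a median of -0.26 beside -0.03. These comparisons share the DMSO array, so a deviation of that 1 array would appear in all of them. The order with KHS101 5 uM lowest, then 1.7 uM, then retinoic acid with forskolin, and DMSO highest was shown by 3 of the 8 measured members, Ccne1, Ccne2 and Cdk2. It was also met by 10.3% of the 8216 genes above the floor on all arrays. The order was not planned and is the one these members showed, so their count is no test and cannot be read as an excess.

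**Figure D2:**
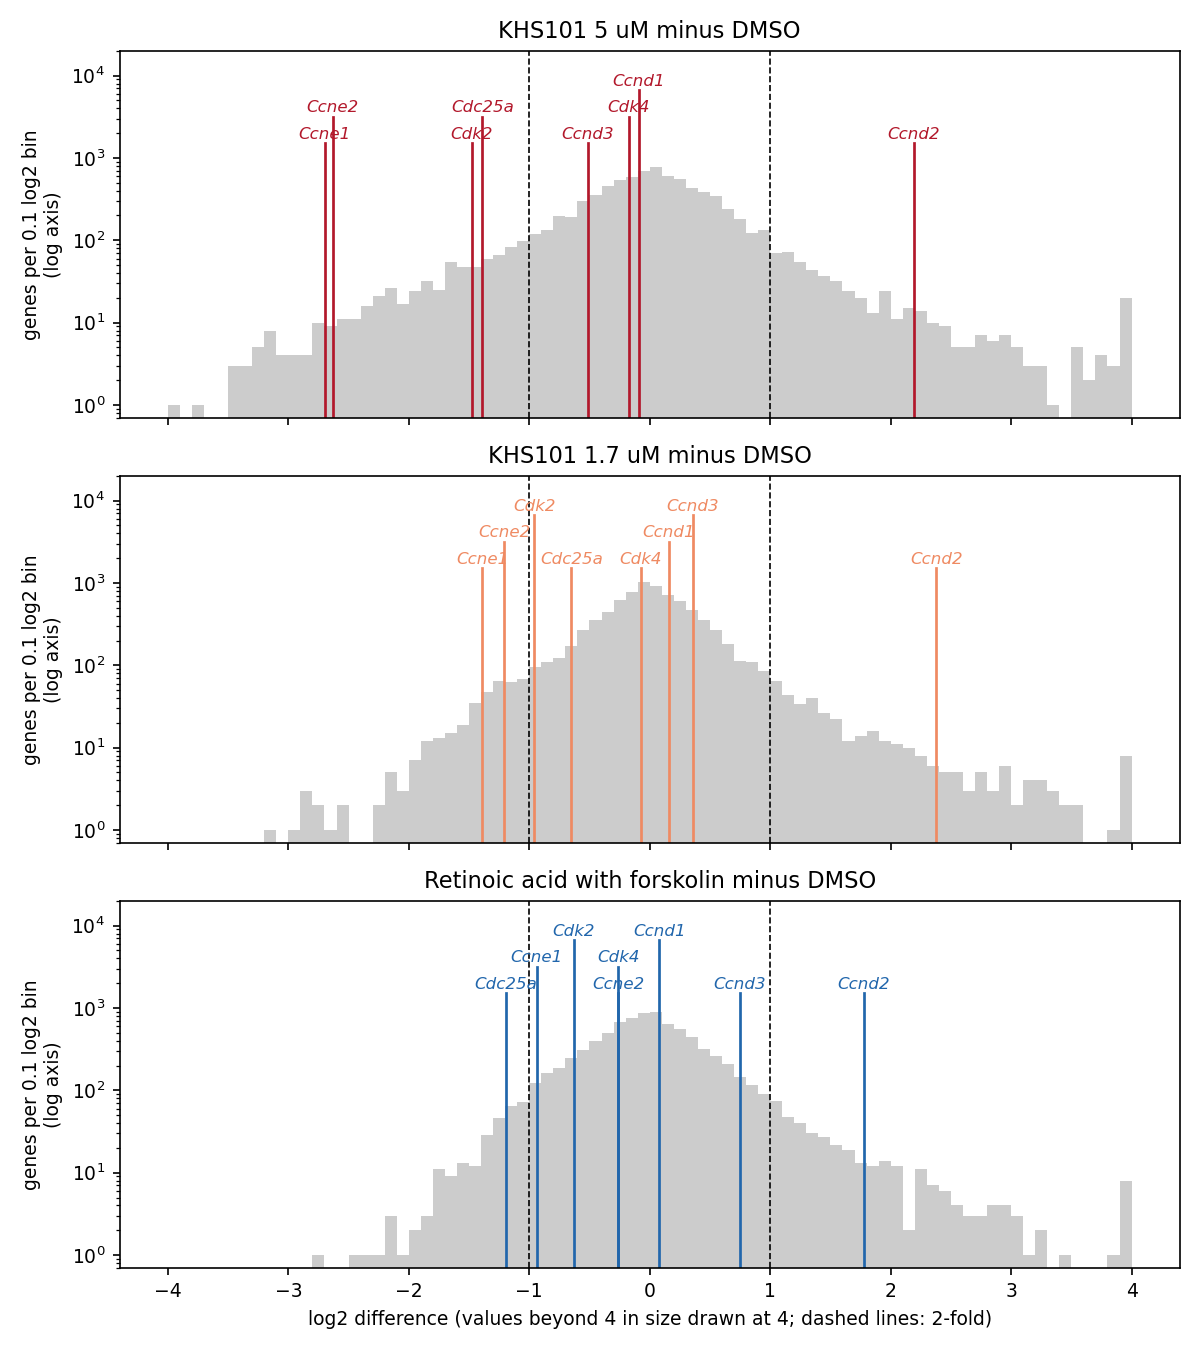
Grey bars count all measured genes by their log2 difference from DMSO (horizontal axis, bins of 0.1; vertical axis on a log scale), and coloured lines mark the 8 measured members; line heights only separate the names. Ccne1 and Ccne2 stand in the lower tail with KHS101 at 5 uM (-2.70 and -2.63), Ccnd2 stands in the upper tail under all 3 treatments, and Ccnd1 and Cdk4 stay near 0.

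The KHS101 arrays were then set against each other, a comparison that does not involve DMSO. The E-type cyclins were the called members: Ccne1 was 2.47-fold and Ccne2 2.68-fold lower at 5 uM than at 1.7 uM, making 2 of 8 members lower and 0 higher, where 1.73% of all 8500 measured genes were lower and 0.812% higher. Only 62 and 36 genes had a more negative dose difference. Ccnd3 was 1.83-fold, Cdc25a 1.67-fold and Cdk2 1.43-fold lower at 5 uM, short of the call. Ccnd2 differed by -0.19 on the log2 scale, less than the probe set SD of 0.21 in this comparison, and so did Cdk4 at -0.10. All 8 members had a negative difference here, with a median of -0.63 beside -0.01 over all genes.

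Each KHS101 concentration was also set against retinoic acid with forskolin, which again leaves out the DMSO array. At 5 uM 3 of 8 members were lower and 0 higher, where 10.2% of measured genes were lower and 8.94% higher. Ccne2 was 5.17-fold lower than with retinoic acid and forskolin, Ccne1 3.39-fold and Ccnd3 2.40-fold. Ccnd2 was 1.33-fold higher and Cdc25a 1.15-fold lower. At 1.7 uM 0 of 8 members were called, where 11.3% of measured genes were called in either direction. Ccne2 was 1.93-fold lower there, close to the threshold, and Ccnd2 was 1.52-fold higher.

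Promoters are shown for the 3 members that were lower at 5 uM and matched the RefSeq promoter table (build GRCr8) by gene ID, and for Cdk4, which was not called. Each runs 5′ to 3′ on the strand of its gene, from 250 bases before the annotated start to 50 after it. Of the 9 genes 5 matched, the other being Ccnd3. Capitals mark the E2F forms TTTGGCGC, TTTCCCGC, TTTGCCGC and TTTCGCGC, the cAMP response element TGACGTCA and the GC box GGGCGG, each searched on both strands; the GC box was added after the values had been seen.

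Ccne1 lies at chr1:99927860-99928159 on the minus strand, Cdk2 at chr7:1721829-1722128 on the minus strand, Cdc25a at chr8:118742798-118743097 on the plus strand and Cdk4 at chr7:64771203-64771502 on the plus strand.
Ccne1: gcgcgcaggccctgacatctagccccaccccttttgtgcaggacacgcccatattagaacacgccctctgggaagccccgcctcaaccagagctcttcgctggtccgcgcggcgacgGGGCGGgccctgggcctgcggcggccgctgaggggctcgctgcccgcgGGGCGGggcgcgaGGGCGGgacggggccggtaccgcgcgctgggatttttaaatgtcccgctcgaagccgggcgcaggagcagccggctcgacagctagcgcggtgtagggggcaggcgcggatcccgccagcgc
Cdk2: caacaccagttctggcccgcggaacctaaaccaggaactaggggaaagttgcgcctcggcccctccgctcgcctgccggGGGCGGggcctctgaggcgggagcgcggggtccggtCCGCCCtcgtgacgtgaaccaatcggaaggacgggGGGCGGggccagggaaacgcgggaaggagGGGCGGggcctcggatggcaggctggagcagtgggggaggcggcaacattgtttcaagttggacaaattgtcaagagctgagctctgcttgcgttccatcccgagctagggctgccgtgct
Cdc25a: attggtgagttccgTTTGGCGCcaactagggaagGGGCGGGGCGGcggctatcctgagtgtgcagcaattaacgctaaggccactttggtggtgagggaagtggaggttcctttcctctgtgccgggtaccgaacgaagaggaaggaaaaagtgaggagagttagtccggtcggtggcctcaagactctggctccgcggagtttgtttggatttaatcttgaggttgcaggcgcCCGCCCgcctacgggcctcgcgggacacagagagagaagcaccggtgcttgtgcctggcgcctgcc
Cdk4: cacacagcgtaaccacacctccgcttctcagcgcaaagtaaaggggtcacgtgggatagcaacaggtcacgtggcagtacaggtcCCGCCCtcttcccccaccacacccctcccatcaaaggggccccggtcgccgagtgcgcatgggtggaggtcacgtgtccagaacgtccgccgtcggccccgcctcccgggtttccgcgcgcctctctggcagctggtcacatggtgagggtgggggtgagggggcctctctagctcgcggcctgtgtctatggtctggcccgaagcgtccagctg

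The Cdc25a window held 1 match to TTTGGCGC, whose first base lies at position -236 from the start. Any of the 4 E2F forms occurs in 2.73% of the 21842 promoters of protein-coding genes in that table and in 2.14% of all 33469. The windows of Ccne1, Cdk2, Cdk4 and Ccnd3 held none of these letters. None of the 5 windows held TGACGTCA, which 2.1% of protein-coding promoters hold. GC boxes were in all 5, with 3 in Ccne1, 4 in Cdk2, 3 in Cdc25a, where the boxes at -216 and -211 overlap by 1 base, 1 in Cdk4 and 3 in Ccnd3, and they occur in 41.8% of protein-coding promoters. Ccnd1, Ccnd2, Ccne2 and Cdk6 were not searched here. A match says only that these letters are in the window.

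The genes that act on or after the G1 kinases were described from 9 lists. Of the CIP/KIP inhibitors, which restrain cyclin E with CDK2, Cdkn1a (p21) had log2 values of 10.87 with KHS101 5 uM, 10.33 with 1.7 uM and 7.69 with retinoic acid and forskolin, against 7.33 in DMSO. It was 11.6-fold and 7.99-fold above DMSO on the KHS101 arrays and 1.28-fold above it with retinoic acid and forskolin. Cdkn1c (p57) read 5.28, 6.37 and 9.91 on the treated arrays in the same order, against 7.82 in DMSO. It was thus 5.83-fold and 2.73-fold lower with KHS101 and 4.23-fold higher with retinoic acid and forskolin. The Cdkn1c value at 5 uM lay near the floor, so the fold size there depends on the floor. Cdkn1b (p27) differed from DMSO by at most 0.40 on the log2 scale in its brightest probe set. With probe sets averaged, Cdkn1b was also called at 5 uM, both against DMSO and against retinoic acid with forskolin, so its result depended on the probe set. Of the 4 INK4 inhibitors of CDK4 and CDK6, Cdkn2c (p18) was 3.73-fold lower at 5 uM, 2.19-fold lower at 1.7 uM and 1.17-fold lower with retinoic acid and forskolin. Cdkn2b (p15) was 2.12-fold higher with retinoic acid and forskolin, with values near the floor of 6.94 against 5.86; as the single called INK4 gene in that comparison it was no longer called with the floor at log2 = 6 or after quantile normalization, where the count was 0. The 3 genes of the CDK-activating kinase, Cdk7, Ccnh and Mnat1, had 0 calls in any of the 6 comparisons. Of all measured genes, 0.812% were higher and 1.73% lower at 5 uM than at 1.7 uM. For KHS101 5 uM against retinoic acid with forskolin, 8.94% were higher and 10.2% lower. The other comparisons lay between these, so 0 calls among 3 genes is near the share of all genes.

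Downstream, all 16 measured G1 to S targets of E2F were lower with KHS101 5 uM than in DMSO. At 1.7 uM 13 of 16 were lower, with retinoic acid and forskolin 7 of 16, and 0 were higher. Of all measured genes 8.1%, 4.27% and 3.15% were lower in the same order, and 6.16%, 4.36% and 4.34% were higher. The median log2 differences of the 16 targets were -2.30, -1.24 and -0.96, beside medians of all genes between -0.03 and 0.00. The replicative helicase gene Mcm3 was 13.1-fold lower at 5 uM and the thymidine kinase gene Tk1 9.34-fold. The same list had 8 of 16 genes lower at 5 uM than at 1.7 uM, beside 1.73% of all measured genes. Of its 16 genes, 14 had the array order seen in Ccne1, Ccne2 and Cdk2, beside 10.3% of the genes above the floor on all arrays. In the list of retinoblastoma, E2F and DP families 6 of 12 genes were lower at 5 uM, 4 genes at 1.7 uM and 1 gene under retinoic acid with forskolin, with 0 higher. E2f1, an activator of the cyclin E genes, was 9.45-fold lower at 5 uM and 3.02-fold lower at 1.7 uM. It read 5.32 at 5 uM, near the floor, against 8.56 in DMSO, so its fold size there depends on the floor. The repressor E2f8 was below the floor at 5 uM and at least 8.50-fold lower. In the list of S, G2 and M cyclins, Cdk1 and its kinases and phosphatases, 7 of 8 genes were lower at 5 uM, all but the phosphatase gene Cdc25b, with 5 genes lower at 1.7 uM and 2 under retinoic acid with forskolin, and medians of -1.52, -1.09 and -0.82. Ccna2, the next partner of CDK2 after cyclin E, was 3.69-fold lower at 5 uM, 2.17-fold at 1.7 uM and 1.52-fold with retinoic acid and forskolin.

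The remaining lists are read beside the 6.16% higher and 8.1% lower of all genes at 5 uM. These shares were 4.36% and 4.27% at 1.7 uM, and 4.34% and 3.15% with retinoic acid and forskolin. Of 17 measured cyclins and CDKs that belong neither to the G1 set nor to S, G2 and M phase, 1 was called against DMSO at 5 uM, Cdk13 at 2.07-fold higher, and 0 were called at 1.7 uM or with retinoic acid and forskolin. Of 11 genes in the list of ubiquitin ligase parts that turn over G1 cyclins and their inhibitors, 1 was called in the comparisons with DMSO. It was Cks2, which encodes a CDK-binding subunit and not a ligase part, at 2.11-fold lower with KHS101 5 uM. With array medians made equal, 2 genes of this list were called there. The uncalled gene of the list nearest the threshold was Fbxo4, which went the other way, at 1.98-fold higher with KHS101 5 uM. Among 14 measured mitogen-side factors of the D-type cyclin genes, 2 were higher and 1 lower at 5 uM, 2 higher and 0 lower at 1.7 uM, and 1 of each with retinoic acid and forskolin. The immediate early gene Egr1 was 2.57-fold, 2.29-fold and 2.30-fold higher in that order. Myc, an activator of several G1 genes, was within 1.22-fold of DMSO under KHS101 and 3.12-fold lower with retinoic acid and forskolin. Skp2, E2f3, Cdc6, Rrm2, Cdc25c and Ccnt1 were also listed and were not analysed here.

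**Figure D3:**
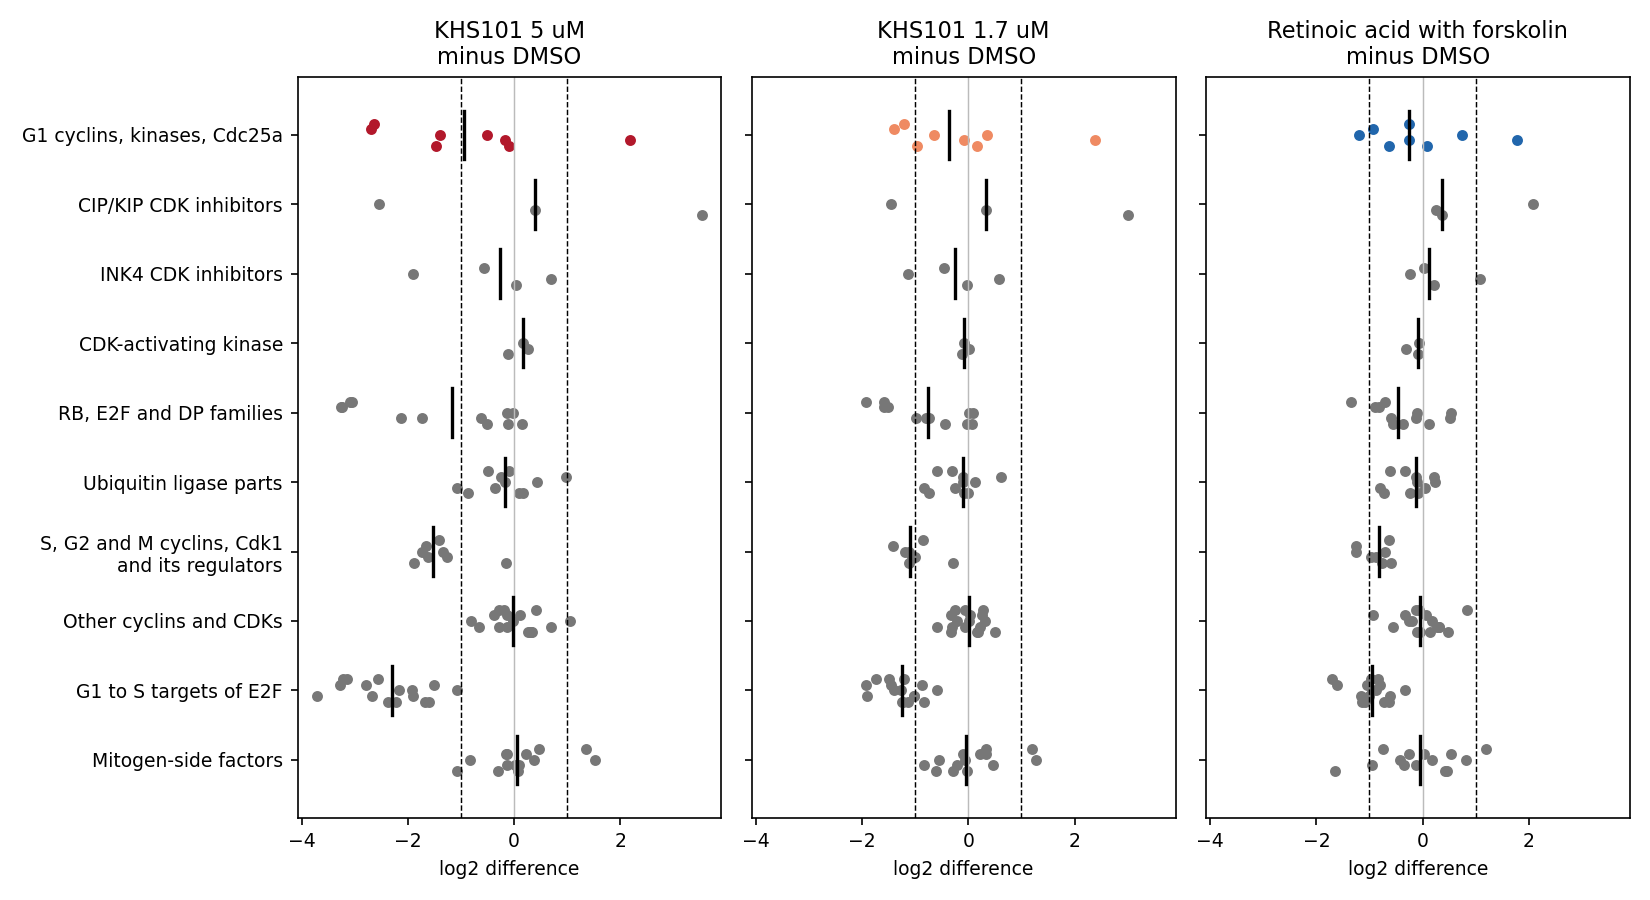
Points are genes, placed by log2 difference from DMSO (horizontal axis) for the 3 treatments, in rows by list, with the 8 measured members in colour in the top row; black bars are medians and dashed lines mark 2-fold. The E2F target row lies wholly below -1 at 5 uM, with a median of -2.30, while the members split between Ccnd2 above and Ccne1, Ccne2, Cdk2 and Cdc25a below. In the row of RB, E2F and DP families, 1 point at 5 uM, E2f8, is a lower bound in size.

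For each called member the 3 genes nearest to it were found by Euclidean distance over the 3 log2 differences from DMSO, among 8215 other genes above the floor on all 4 arrays. The measure uses 4 arrays and shares DMSO, so it describes these arrays. Nearest to Ccne1 were Fam83d at 0.09, the exonuclease gene Exo1 at 0.15 and the recombination gene Rad51c at 0.17. Nearest to Cdk2 were the histone acetyltransferase gene Hat1 at 0.05, Ube2t at 0.08 and C2h4orf46 at 0.10. Nearest to Ccne2 were Ccsap at 0.20, Cbln1 at 0.28 and Ehd2 at 0.32. Nearest to Cdc25a were Trib2 at 0.19, Samd1 at 0.21 and Cndp1 at 0.22. For Ccnd2 the nearest genes were further off: Ppm1h at 0.53, Abca7 at 0.61 and Rbms3 at 0.69. Rbms3 differed from Ccnd2 in being highest with retinoic acid and forskolin, at 8.08 on the log2 scale, rather than with KHS101.

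**Figure D4:**
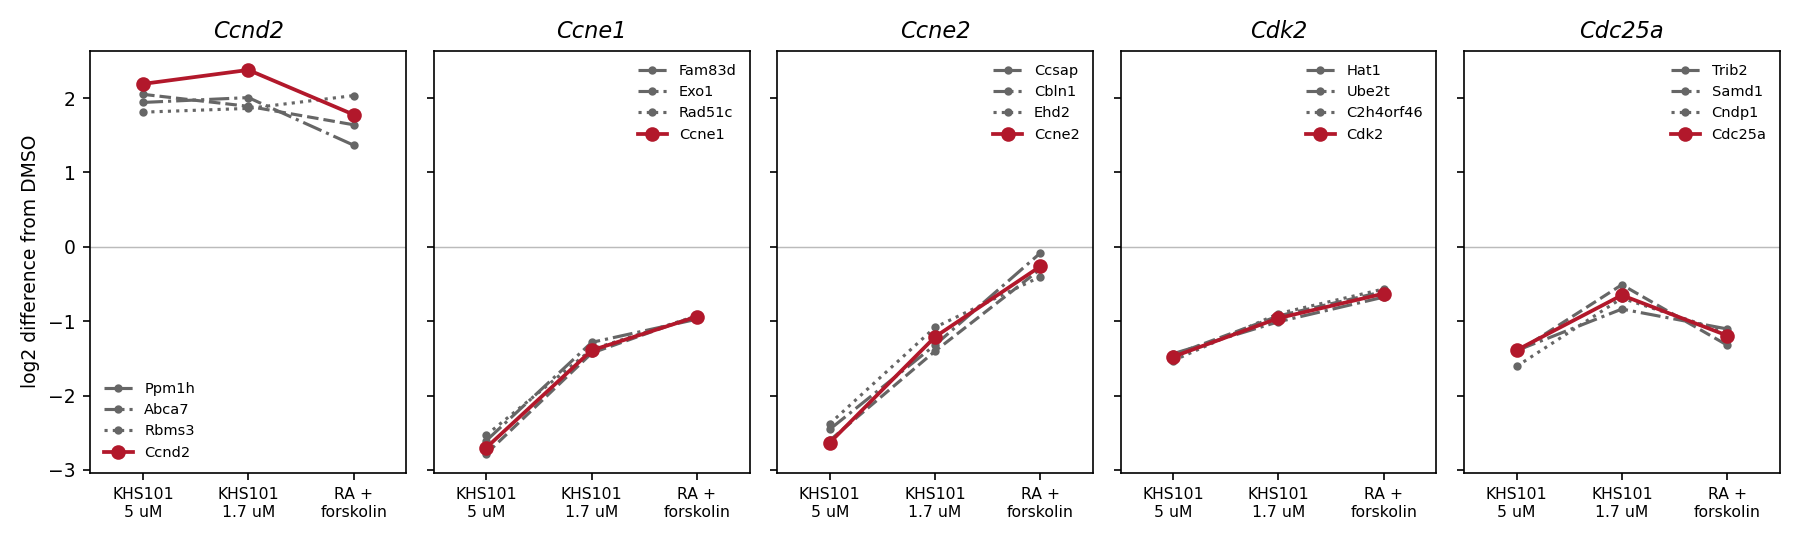
Each panel shows a called member in red and its 3 nearest genes in grey, as log2 differences from DMSO (vertical axis) under the 3 treatments (horizontal axis; lines join values of 1 gene). Ccne1 and Cdk2 nearly coincide with their nearest genes (distances up to 0.17 and 0.10), whereas those of Ccnd2 lie up to 0.69 away.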

How the data were processed

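Affymetrix probe set values of 4 arrays, 1 per group, were used as deposited. The authors' deposited values are on a log2 scale, which was taken from the values (maximum 16.1); GCRMA and R 2.6.2 are named per the submitters' processing notes, without the step each served or a genome build. At equal ranks the arrays differed by a median of 0.06, so such values hide any shift common to all genes. Of 31099 probe sets, 57 controls were left out; 20826 had 1 symbol, 436 had several and 9780 were unnamed here, and these last groups entered no gene count. A gene was represented by its brightest probe set on average. All 9 members matched RefSeq by gene ID.

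Values were raised to log2 = 5, differences were taken in 6 comparisons and called at 2-fold; no test was run. Depth has no counterpart on arrays; the signal over the floor limits what is seen. The code for differences and calls was run on simulated data, with changes well beyond the threshold in genes well above the floor. This checks the code only and says nothing of accuracy near the threshold or the floor. Alternatives were other floors, probe set averaging, rescaling and other thresholds. Named were all members, up to 4 called genes per list by largest difference from DMSO, and the 3 nearest genes of each called member. Cdkn1b, Cdc25b, Fbxo4, the marker genes and the CDK-activating kinase genes were named outside this rule, after their values were seen. Some genes were left out for length. Members and lists were chosen with earlier results of these data known. Calculations used Python 3.11.15, pandas 2.3.3 and numpy 2.4.6.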

Additional observations from a re-analysis of the deposited data

How the results depend on the processing

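The 8 measured members kept their direction wherever they were called, and their side of the 2-fold threshold, in all 288 recomputed differences: floors at log2 = 4 and 6, no floor, averaged probe sets, quantile normalization and equal array medians. None moved by as much as the pooled probe set SD. Of 324 counts in the lists, 318 stayed within 1.5 times and 6 moved. The counts of members and of all genes depended on the fold threshold. At 1.5-fold the members called were 5 for KHS101 1.7 uM against DMSO, 5 for retinoic acid with forskolin against DMSO, 4 for KHS101 5 uM against 1.7 uM and 2 for 1.7 uM against retinoic acid with forskolin; all genes called numbered 2621 for 5 uM against DMSO, 1799 for 1.7 uM against DMSO, 2006 for retinoic acid with forskolin against DMSO, 841 for 5 uM against 1.7 uM, and 3333 and 2313 for 5 and 1.7 uM against retinoic acid with forskolin. At 3-fold the members called were 3 for 5 uM, 1 for 1.7 uM and 1 for retinoic acid with forskolin, each against DMSO, and 0 for 5 uM against 1.7 uM; all genes called numbered 518, 214 and 168 against DMSO, 29 between the KHS101 arrays, and 664 and 320 for 5 and 1.7 uM against retinoic acid with forskolin. No paired analysis was possible because each group has 1 array. Cdk6 and the second probe sets of Ccne2 and Cdc25a were too dim to be read.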
